A study of Mus musculus with 2 samples.

Results

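Cycling monocytes and macrophages of mouse plantaris muscle were 414 of 20413 cell barcodes, 9 of 8463 in the sham library and 405 of 11950 in the tenotomy library. They were chosen from their measured counts of unique molecular identifiers (UMIs, the molecules counted per gene and cell). A member had at least 500 UMIs, at least 300 genes and at most 10% mitochondrial UMIs. It had at least 3 UMIs over the monocyte and macrophage genes Csf1r, Cd68, Mpeg1 and Ms4a6c, and fewer than 3 over the neutrophil genes Csf3r and Retnlg, fewer than 2 over the dendritic cell genes Cd209a and Flt3, and fewer than 5 over the granulocyte precursor genes Ngp, Camp, Elane and Mpo. It also had at least 3 UMIs over the division genes Mki67, Top2a, Cdk1, Ccnb1, Cenpf and Birc5. Without the last limit the gate held 343 sham and 4799 tenotomy cells, of which 306 and 3470 had 0 UMIs of the 6 division genes. Those 0-cycle cells of the same library were the comparison.

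Both libraries came from C57BL/6 male mice aged 12 weeks. Tenotomy was done on 1 side of each of 5 mice, and the other side of the same animals served as sham. The plantaris of each side was studied, and which tendon was operated on is unknown here. At 4 days the 5 muscles of each kind were combined, collagenase released their mononuclear cells, and living cells, positive for Calcein AM and negative for propidium iodide, were sorted. Each pool became 1 library made with the 10x 3-prime v3.1 chemistry, so there was 1 library per group, the spread between mice could not be measured, and no test between samples was possible. All intervals are at 95% and cover counting error only.

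Macrophages in muscle have several sources. Some live in the tissue for long periods and renew themselves there, with colony-stimulating factor 1 acting through its receptor Csf1r, and others arise from blood monocytes, which carry Ly6C and Ccr2 and are made in bone marrow from dividing precursors. Cells that enter the cycle first make the genes of DNA replication, which E2F factors control, and then those of mitosis, which the DREAM complex holds down in resting cells through the cell cycle homology region of their promoters. CCAAT boxes bound by NF-Y often stand next to that region.

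The promoters of the genes that defined the members show these elements, and 3 are printed here because Cdk1 and Ccnb1 encode the kinase and the cyclin that start mitosis and Top2a encodes the topoisomerase that untangles replicated DNA. Each is the 250 bases before the annotated start, from RefSeq on GRCm38.p6, written 5′ to 3′ on the strand of the gene. Capitals mark the CCAAT box on either strand, where the other strand reads ATTGG. They also mark the usual letters of the cell cycle homology region, which are TTTGAA (read from the other strand as TTCAAA) and the word TTTAAA, the same on both strands.

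Ccnb1, chr13:100786487-100786736, strand minus: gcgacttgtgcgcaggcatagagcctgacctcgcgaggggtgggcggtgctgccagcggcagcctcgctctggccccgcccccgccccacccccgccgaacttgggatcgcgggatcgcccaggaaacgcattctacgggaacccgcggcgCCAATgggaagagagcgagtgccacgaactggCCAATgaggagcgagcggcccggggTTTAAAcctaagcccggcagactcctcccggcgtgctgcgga

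Cdk1, chr10:69352913-69353162, strand minus: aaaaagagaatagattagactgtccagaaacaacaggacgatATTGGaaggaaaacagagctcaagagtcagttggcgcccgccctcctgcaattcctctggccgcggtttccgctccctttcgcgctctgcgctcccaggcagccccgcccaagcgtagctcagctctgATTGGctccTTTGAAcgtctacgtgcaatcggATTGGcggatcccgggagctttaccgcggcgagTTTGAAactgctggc

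Top2a, chr11:99024190-99024439, strand minus: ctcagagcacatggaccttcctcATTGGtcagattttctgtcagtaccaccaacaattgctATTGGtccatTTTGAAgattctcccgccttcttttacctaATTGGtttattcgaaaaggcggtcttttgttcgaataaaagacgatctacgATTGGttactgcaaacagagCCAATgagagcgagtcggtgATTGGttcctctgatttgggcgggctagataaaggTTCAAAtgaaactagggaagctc

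Over windows from 250 bases before to 50 after the start, 5 of the 6 division genes of the rule held CCAAT together with TTTGAA or TTTAAA on either strand. The pair was in 39 of 71 promoters of the mitosis list (54.9%), in 6 of 37 of the replication list (16.2%) and in 10.7% of all 32851 promoters. The E2F-type words TTCCCGCC or TTTGGCGC went the other way, with 5 of 71 mitosis promoters (7.04%), 12 of 37 replication promoters (32.4%), 0 of the 6 rule genes and 2.68% of all promoters. Promoters were found for 66 of the 83 mitosis genes and 30 of the 38 replication genes. A match of letters is a description of the window and does not show binding.

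The label held for most members and not for all. Among the 405 tenotomy members, 371 had a UMI of Csf1r, 375 of Cd68, 355 of Mki67 and 273 of Top2a. Collagen and other mesenchymal genes were also abundant: 218 members (53.8%) had at least 3 UMIs over Col1a1, Col1a2, Col3a1, Dcn, Pdgfra and Lum. Each cell was therefore scored for 12 leukocyte genes, such as Ptprc, Tyrobp and Laptm5, and for genes of 9 other kinds of cell. Cells with at least 60 leukocyte UMIs and at most 20 other-cell UMIs per 10000 are called marker-clear here, limits that were set after the values had been seen. They held 303 of 405 tenotomy members (74.8%) and 3274 of 3470 0-cycle cells (94.4%). In sham they held 7 of 9 members and 217 of 306 0-cycle cells.

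Of the 102 tenotomy members outside these limits, 72 had few leukocyte UMIs, 94 many other-cell UMIs and 64 both. Mesenchymal genes led in 67, muscle genes in 14, endothelial genes in 13, erythroid genes in 7 and mural genes in 1. Their median depth was 26392.5 UMIs, against 10221 in the marker-clear members, and 29 of 102 against 7 of 303 had a doublet score above 0.212. Over the 405 members the mesenchymal genes summed to 7679 counts per 1000000 UMIs of the same cells (CPM), over the 303 marker-clear members to 237, and over marker-clear 0-cycle cells to 244, sums that the limit on other-cell genes caps. Of the marker-clear members 128 of 303 (42.2%) still had at least 3 mesenchymal UMIs, against 663 of 3274 marker-clear 0-cycle cells (20.3%), which were shallower. The main results are therefore given both for the whole gate and for marker-clear cells. The graded shares, the pairs of calls and the values within resident-positive cells or at similar depth are for marker-clear cells alone.

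**Figure D1:**
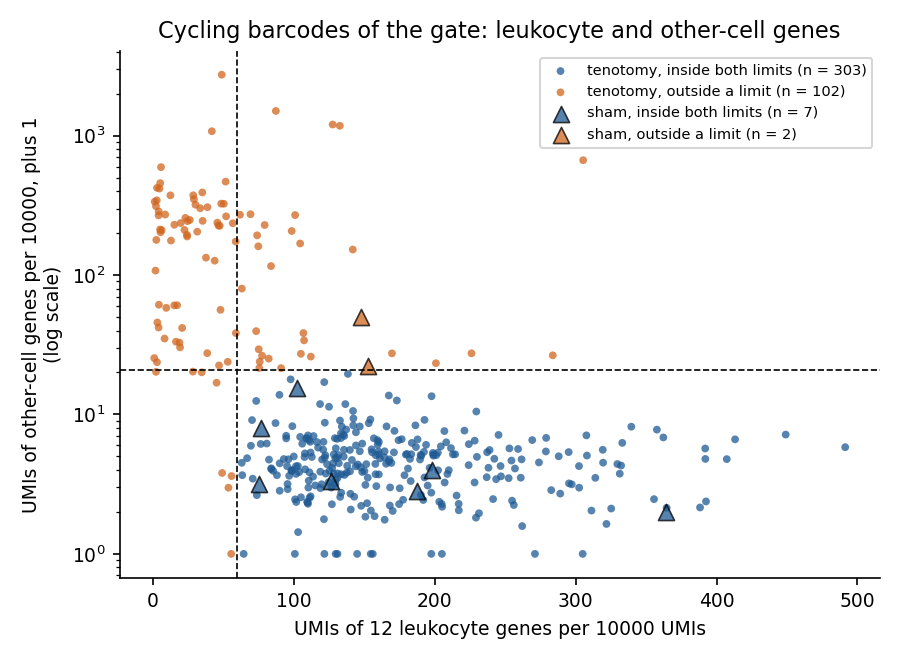
Each point is 1 cycling barcode of the gate, with UMIs of 12 leukocyte genes per 10000 UMIs on the x axis and UMIs of other-cell genes per 10000 plus 1, on a log scale, on the y axis; dashed lines are the limits of 60 and 20. The 303 marker-clear tenotomy members lie at the lower right, and the 102 others reach far up the y axis.

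The sham library held 47781353 UMIs and the tenotomy library 94556283. Tenotomy members had a median of 11946 UMIs and 3300 genes, against 6015 UMIs and 2018 genes in 0-cycle cells, so members were the deeper cells. In sham these medians were 16867 and 6795.5 UMIs. The libraries shared 33 barcodes, of which 0 were members. Of all barcodes with at least 3 UMIs of the 6 division genes, whatever their type, members made up 9 of 34 in sham and 405 of 1368 in tenotomy.

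The division genes that chose the members are given as a description. In the 303 marker-clear tenotomy members Mki67, a protein that coats mitotic chromosomes, had 1369 UMIs in 269 cells, or 412 CPM. Top2a had 1262 UMIs (380 CPM), the survivin gene Birc5 928 (279 CPM), Cdk1 417 (126 CPM), the kinetochore gene Cenpf 411 (124 CPM) and the cyclin gene Ccnb1 246 (74.0 CPM). All 6 genes were present in 52 cells and 1 alone in 55. Just inside the limit of 3 UMIs were 81 tenotomy and 3 sham cells with exactly 3, and just outside were 224 and 6 with exactly 2.

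Cells with few and with many division UMIs differed in which cycle genes they carried. In marker-clear tenotomy cells the replication list summed to 518 CPM in cells with 0 division UMIs, 712 with 1 to 2, 1566 with 3 to 5, 3071 with 6 to 19 and 2806 with 20 or more. The mitosis list summed to 1387, 1493, 2481, 8082 and 14709 CPM in the same classes, so the mitosis sum was highest in the last class and the replication sum was not. Both lists move with the genes of the rule, so this too is a description.

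Other cycle genes moved with the rule genes, and the share of all measured genes at least 2-fold higher in marker-clear cycling cells was 4.54% of 5397, a background from which nothing is read here because the rule set this contrast. A gene was measured with a mean of at least 20 CPM over both classes and at least 25 UMIs. At least 2-fold higher were 21 of 23 measured replication genes, 41 of 44 mitosis genes, 10 of 15 nucleotide synthesis genes and 9 of 12 histone and chromatin genes. Pclaf, which binds the replication clamp, was at 376 against 2.97 CPM, the nucleotide reductase gene Rrm2 at 73.4 against 1.61, and the linker histone Hist1h1b at 118 against 1.51. Pttg1 was the 1 mitosis gene below its 0-cycle level, 1.18-fold lower.

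Genes that admit cells to the cycle and genes that hold them back did not all go one way. E2f1 was 4.17-fold higher (3.43-5.05) and Cdk4, the partner of D cyclins, 2.36-fold higher (2.09-2.65). Ccnd1 stood at 101 CPM in cycling and 65.0 CPM in 0-cycle cells, and Ccnd2 at 20.2 and 25.7 CPM. Of 9 measured cyclin-dependent kinase inhibitors and related brakes, Cdkn2c was 9.87-fold higher (8.01-12.2) and Cdkn2d 2.90-fold higher (2.50-3.36). The antiproliferative genes Btg1 and Tob1 were 1.91-fold and 1.69-fold lower, and Cdkn1a, which encodes p21, was 1.31-fold lower (1.26-1.37). Myc had 34 UMIs in cycling and 137 in 0-cycle cells, 10.2 and 6.67 CPM, below the limit for a measured gene, and its direction turned in cells without other-cell markers (log2 fold -0.13).

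The cycling share of gated cells was higher in the tenotomy library. Members were 9 of 343 sham cells (2.62%, Clopper-Pearson interval 1.21-4.92) and 405 of 4799 tenotomy cells (8.44%, 7.67-9.26). With every cell reduced at random to 4000 UMIs, the shares were 3 of 267 (1.12%, 0.232-3.25) and 217 of 4042 (5.37%, 4.69-6.11), a ratio of 4.78 (1.54-14.8), with 76 sham and 757 tenotomy cells too shallow. The ratio was 3.22 (1.68-6.17) without thinning, 9.64 (1.35-68.7) at 2000 UMIs and 8.11 at 8000. In marker-clear cells they were 3 of 223 (1.35%) and 171 of 3699 (4.62%, 3.97-5.35), a ratio of 3.44 (1.11-10.7), which was 2.39 without thinning, 6.46 at 2000 UMIs with an interval spanning 1 (0.907-46.1), and 5.69 at 8000. Few cycling sham cells lie behind these ratios: 3 at 4000 and at 8000 UMIs and 1 at 2000, in either set. Without thinning they were 9 in the gate and 7 marker-clear, so all these intervals are rough. For 8000 UMIs 197 sham and 3275 tenotomy cells of the gate were too shallow.

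Depth moved the share. Among marker-clear tenotomy cells at full depth, 17 of 718 cells with 500 to 4000 UMIs were members, 68 of 2451 with 4000 to 8000, 163 of 1146 with 8000 to 15000, and 55 of 102 above that (53.9%). The part of depth in the share at full depth was not tested beyond the thinned values above. Endothelial-type cells with no macrophage UMI were thinned in the same way. They had the division call in 0 of 1538 sham cells, with an upper limit of 0.240%, and in 36 of 539 tenotomy cells (6.68%). The tenotomy value was above that of the marker-clear macrophages, so this call cannot be set against a background there.

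Of 6 macrophage states, the resident type had the highest cycling share. A state was called from at least 3 UMIs of a short gene list in a cell thinned to 4000 UMIs, and states overlap: Lyve1, Folr2, Cd163, Timd4, Cbr2 and Vsig4 for resident cells, H2-Aa, H2-Ab1 and H2-Eb1 for antigen presentation by MHC class II, Gpnmb, Trem2, Fabp5, Syngr1, Lpl and Plin2 for lipid-handling cells, genes such as Ly6c2, Plac8, Chil3, Vcan and Hp for inflammatory monocytes, C1qa, C1qb and C1qc for complement C1q, and Isg15, Ifit1, Ifit2, Ifit3, Rsad2 and Cxcl10 for the interferon response. In marker-clear tenotomy cells, 95 of 1019 resident-positive cells cycled (9.32%, 7.61-11.3), against 76 of 2680 others (2.84%, 2.24-3.54), a ratio of 3.29 (2.45-4.41). In the whole gate the shares were 9.45% and 3.92%, with a ratio of 2.41 (1.86-3.12). Tenotomy endothelial-type cells met the resident call in 0.928% of cells, MHC class II in 1.11%, C1q in 2.41% and the inflammatory call in 3.15%. They met the lipid call in 398 of 539 cells (73.8%) and the interferon call in 151 of 539, so those calls are not specific to macrophages.

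MHC class II-positive cells cycled less often. Their share was 54 of 1971 (2.74%) against 117 of 1728 cells without the call (6.77%), a ratio of 0.405 (0.295-0.555), and 0.445 in the whole gate. C1q-positive cells cycled in 154 of 2967 (5.19%) against 17 of 732 (2.32%), a ratio of 2.23 (1.36-3.66), but in the whole gate the ratio was 1.22 (0.875-1.71), so that result rests on leaving out the cells with other-cell genes. Interferon-positive cells had 4.01% against 4.70%, a ratio of 0.853 (0.522-1.39), which was 1.57 (1.22-2.02) without thinning.

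Lipid-handling and inflammatory calls also marked cells with a lower share at 4000 UMIs, but not among the fewer cells that reached 8000. Lipid-positive cells cycled in 126 of 3146 (4.01%) and lipid-negative cells in 45 of 553 (8.14%), a ratio of 0.492 (0.354-0.683). Inflammatory-positive cells cycled in 17 of 816 (2.08%) and the rest in 154 of 2883 (5.34%), a ratio of 0.390 (0.238-0.640). For 8000 UMIs 3169 marker-clear tenotomy cells were too shallow, so the ratios at that depth are for the 1248 deeper cells only. At 8000 UMIs per cell the ratios were 1.21 for lipid and 0.966 for inflammatory cells, and without thinning 1.67 and 0.609. The resident ratio was 3.73 at 2000, 2.11 at 8000 and 3.74 without thinning, and the MHC class II ratio 0.268, 0.681 (0.522-0.889) and 0.857 (0.689-1.07).

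**Figure D2:**
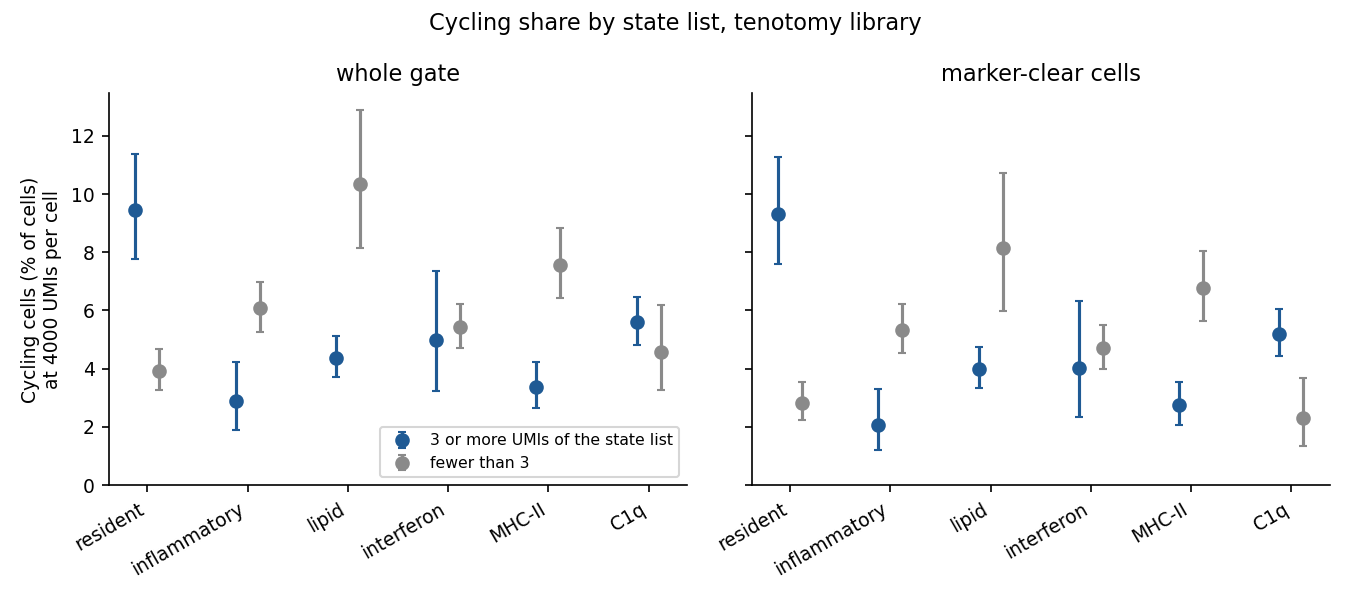
Points are the share of cells with at least 3 division UMIs (y axis, % of cells, each thinned to 4000 UMIs) among tenotomy cells with and without each of 6 state calls (x axis), in the whole gate (left) and in marker-clear cells (right); bars are exact 95% binomial intervals. Of the positive calls the resident one is highest, at 9.45% and 9.32%, and MHC class II-positive cells are at 3.36% and 2.74%; lipid-negative cells of the whole gate are at 10.4% and inflammatory-positive cells at 2.90% and 2.08%.

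The share followed the amount of resident transcripts. It was 2.47% in cells with 0 UMIs of the resident list (43 of 1744), 3.53% with 1 to 2, 6.77% with 3 to 5, 11.1% with 6 to 11 and 12.4% with 12 to 24 (24 of 193), and the 12 cells above that included 0 cycling cells. Along the MHC class II list it was 7.77% with 0 UMIs (71 of 914) and 2.25% with 25 or more (28 of 1245). Along the lipid list it was 3.36% with 0 UMIs (5 of 149), 9.90% with 1 to 2 (40 of 404) and 0.651% with 25 or more (3 of 461), so the lipid call of 3 UMIs joined cells that differed widely. Near the resident limit, 328 of 3699 cells had exactly 2 UMIs and 184 exactly 3. Resident-positive cells had medians of 6 UMIs of the resident list, 42 of C1q, 7 of the lipid list, 1 of MHC class II and 0 of the inflammatory list.

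Pairs of calls separated the cells further. Resident-positive cells without the MHC class II call cycled in 78 of 695 (11.2%), those with both calls in 17 of 324 (5.25%), those with MHC class II alone in 37 of 1647 (2.25%) and those with neither in 39 of 1033 (3.78%). Resident-positive cells without the lipid call had the highest share of these pairs, 28 of 136 (20.6%), against 67 of 883 (7.59%) with both. Of the 171 marker-clear cycling cells at this depth, 55.6% were resident-positive, 90.1% C1q-positive, 73.7% lipid-positive, 31.6% MHC class II-positive and 9.94% inflammatory-positive.

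**Figure D3:**
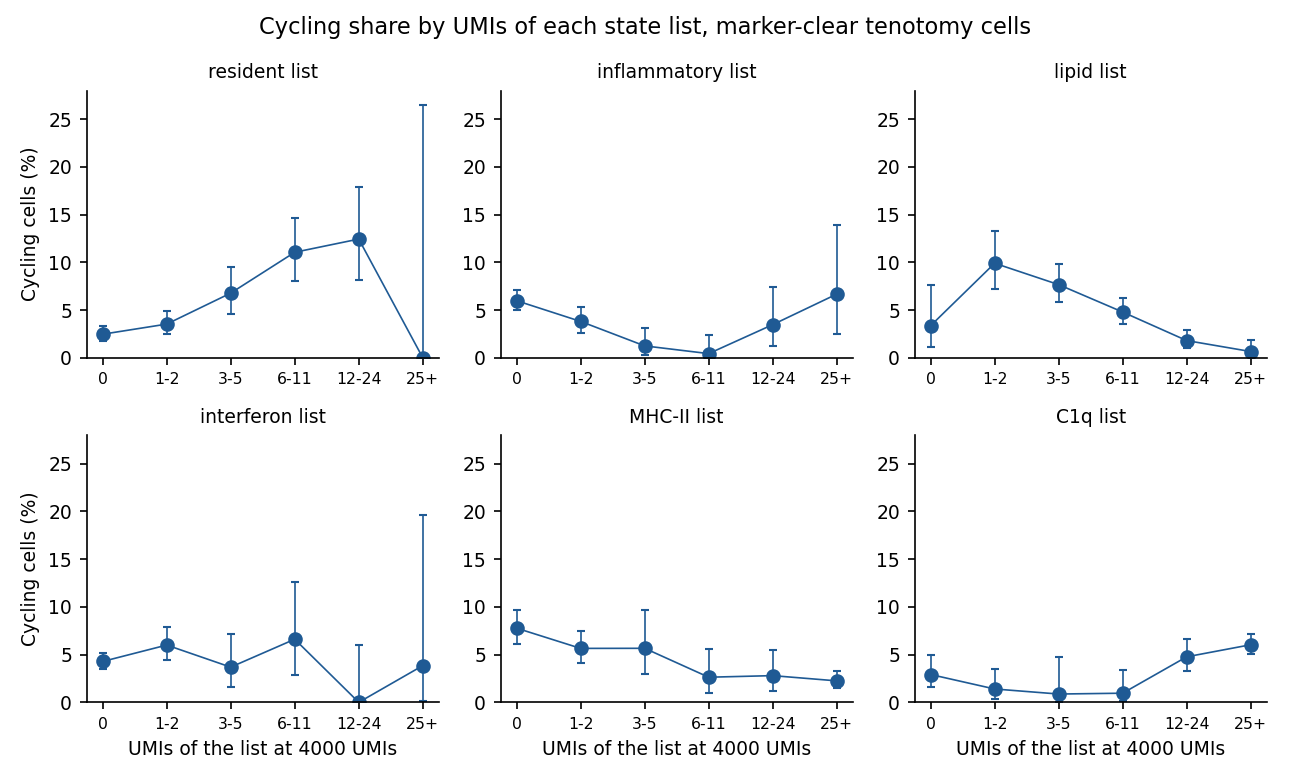
Each panel gives the cycling share (y axis, % of marker-clear tenotomy cells thinned to 4000 UMIs) by the number of UMIs of 1 state list in the cell (x axis), with exact 95% binomial intervals. The resident panel climbs from 2.47% to 12.4% before the last class of 12 cells, the MHC class II panel comes down from 7.77% to 2.25%, and the inflammatory panel dips and comes back up.

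A small second set of cycling cells sat at the inflammatory end. The share along the inflammatory list was 5.97% with 0 UMIs, 1.24% with 3 to 5 (4 of 322), 0.433% with 6 to 11 (1 of 231), 3.47% with 12 to 24 (6 of 173) and 6.67% with 25 or more (6 of 90). The 12 cycling cells with at least 12 such UMIs were then examined, a choice made after these values were seen. C1q was called in 1 of 12 and the resident state in 0 of 12, while 149 of the 154 cycling cells with 0 to 2 inflammatory UMIs were C1q-positive and 93 resident-positive. Among 0-cycle cells C1q was called in 72 of 231 and the resident state in 4 of 231 at the same inflammatory level, and in 1974 and 671 of 2259 with 0 to 2 inflammatory UMIs, so both calls followed the inflammatory level in 0-cycle cells too.

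Ly6c2, Chil3, Plac8 and Vcan are in the list that chose those 12 cells, so their levels are a description of the choice. Ly6c2 had 13 to 42 UMIs in each of the 12, together 286 UMIs or 2293 CPM (2035-2574), against 1404 CPM (1341-1471) in the 231 0-cycle cells of the same inflammatory level. Chil3 was at 2261 against 622 CPM, but Plac8 at 1267 against 2293 and Vcan at 128 against 664. Among genes outside the list, the chemokine receptor gene Ccr2 was at 906 against 584 CPM. Csf1r was lower, with 12 UMIs (96.2 CPM) against 345 CPM. Genes of myeloid precursors were present in part. Prtn3, a granule protease of myeloid precursors, had UMIs in 9 of 12 cells (297 CPM, 209-409) and in 27 of 231 0-cycle cells (31.0 CPM). Fcnb, made in the same precursors, was at 80.2 CPM from 10 UMIs, in 4 of the 12 cells. Elane had 9 UMIs in 6 of the 12 cells (72.1 against 10.1 CPM in the 231). Ctsg had 5 UMIs in 3 cells (40.1 against 0.774 CPM), Mpo had 2 UMIs and Camp 1. Ngp, Ltf, Kit and Myb had 0 UMIs in the 12 cells. At least 3 UMIs of the granulocyte precursor list were in 9 of 12 cells and in 6 of 231, and the gate had capped Elane, Mpo, Ngp and Camp in all of them.

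These few cells held most of the Ly6c2 of the cycling cells. Over all 303 marker-clear members Ly6c2 had UMIs in 29 cells, and 14 cells with at least 10 UMIs held 91.3% of its 346 UMIs. By division UMIs, Ly6c2 was at 137 CPM in 0-cycle cells, 85.1 with 1 to 2, 16.7 with 3 to 5, 179 with 6 to 19 and 133 with 20 or more. Its mean over the cycling cells therefore described neither set of them.

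Genes outside the cycle lists were compared in marker-clear tenotomy cells, 303 cycling against 3274 0-cycle, as folds of summed CPM. The shares that follow are over all measured genes, with the cycle genes included. At least 1.5-fold higher were 12.7% of 5397 measured genes and at least 1.5-fold lower 3.98%, with a median log2 fold of 0.10. Past 2-fold were 4.54% and 1%. In the whole gate of 405 against 3470 cells these shares were 21.6% and 11% of 5722 genes, past 2-fold 10.4% and 2.78%, with a median of 0.09.

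Resident macrophage genes were higher in marker-clear cycling cells. Of 19 measured members of 26 listed, 11 were at least 1.5-fold higher and 0 that much lower, with a median log2 fold of 0.74. Lyve1, the hyaluronan receptor of perivascular macrophages, was at 256 against 77.6 CPM, 3.30-fold higher (3.03-3.59). The lectin genes Fcna and Mgl2 were 2.79-fold and 2.44-fold higher, the folate receptor Folr2 was at 386 against 216 CPM, and the mannose receptor Mrc1 at 1328 against 771 CPM. Cd163, the hemoglobin scavenger receptor, was 1.82-fold higher and Gas6, a bridge to dying cells, 1.67-fold higher. Selenop and Ninj1 stood lower, by 1.31-fold and 1.22-fold. With the other-cell barcodes kept, the resident median was 0.10, beside 0.09 over all genes, and Lyve1 was 1.99-fold and Folr2 1.12-fold higher. The counts past 1.5-fold were then 4 of 19 higher and 2 lower, beside 21.6% and 11% of all genes. In the whole gate the resident list was therefore near the shift of all genes.

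Complement C1q genes were modestly higher without the other-cell barcodes. C1qa stood at 3617 against 2607 CPM (1.39-fold, 1.36-1.41), C1qc was 1.38-fold and C1qb 1.22-fold higher. In the whole gate C1qa was 1.12-fold lower and the C1q median was -0.17, so the direction depended on those barcodes. Maf encodes a transcription factor known to restrain the self-renewal of macrophages. It is also on the resident list and was at 453 against 268 CPM.

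All 6 measured MHC class II genes were at least 1.5-fold lower in cycling cells, with a median log2 fold of -1.07 and of -1.38 in the whole gate. H2-Aa was at 1357 against 3035 CPM, 2.24-fold lower (2.17-2.31), and Cd74, the invariant chain that accompanies class II proteins, at 3420 against 6812 CPM. The smallest difference was in H2-DMb1, a peptide-loading chaperone, 1.76-fold lower.

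Lipid-handling genes were lower as well. Of 22 measured genes 10 were at least 1.5-fold lower and all 22 were below their 0-cycle level, with a median of -0.56, and -0.89 in the whole gate. Arginase 1 showed the widest gap, with Arg1 at 34.3 against 144 CPM, 4.21-fold lower (3.49-5.12). Osteopontin, encoded by Spp1, was at 737 against 1780 CPM, 2.42-fold lower (2.32-2.52), Fabp5, a fatty acid binding protein, at 653 against 1283 CPM and Gpnmb at 120 against 222 CPM. The lipid receptors Trem2 and Cd36 were closest, 1.22-fold and 1.02-fold lower.

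Inflammatory monocyte genes were mostly lower in marker-clear cells, 9 of 19 by at least 1.5-fold, with a median of -0.57, beside 3.98% of all genes. In the whole gate 13 of 20 were that much lower, with a median of -1.05, beside 11% of all genes. In marker-clear cells thrombospondin 1, encoded by Thbs1, was at 587 against 2334 CPM, 3.98-fold lower, and Plac8 was 2.34-fold lower. Vcan, a matrix proteoglycan gene that monocytes and mesenchymal cells both use, was 3.34-fold lower in marker-clear cells but 1.57-fold higher in the whole gate. F13a1, the coagulation factor XIII chain of macrophages, was 1.36-fold higher. Ccr2 was at 342 and 346 CPM, with an interval for the fold that spans 1. Of 17 interferon genes measured in marker-clear cells 6 were at least 1.5-fold lower, among them Slfn5 (2.15-fold) and Isg15 (1.86-fold), and Cxcl10 was at 96.3 against 86.4 CPM. In the whole gate 13 of 16 interferon genes were that much lower, with a median of -0.85.

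**Figure D4:**
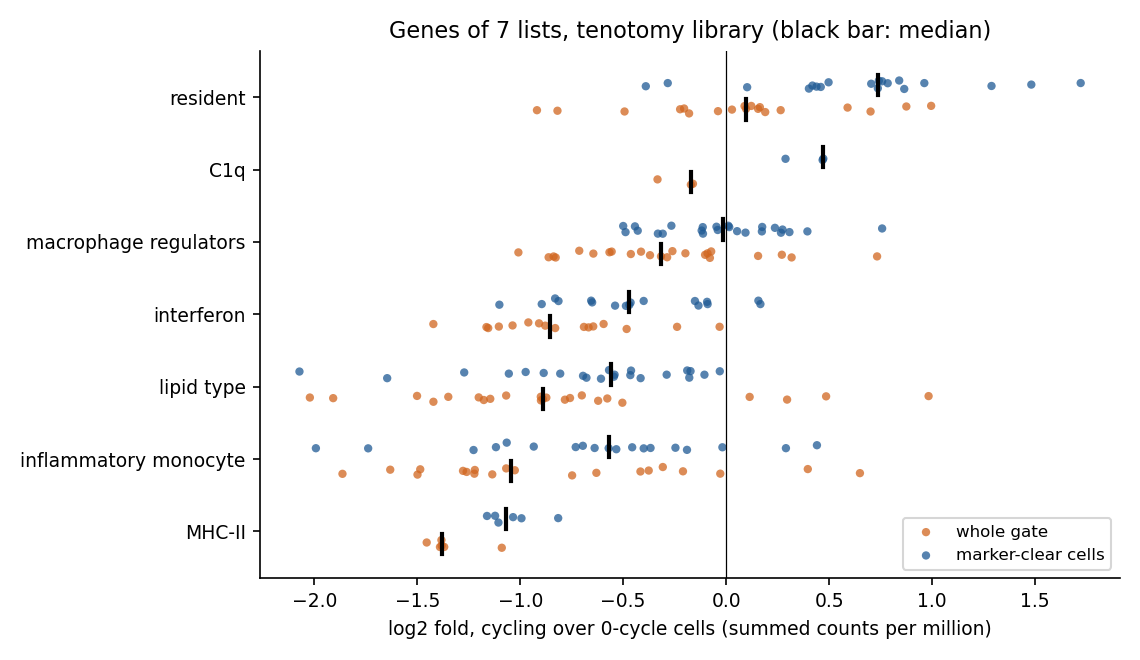
Each point is a gene of 7 lists, placed by its log2 fold in cycling over 0-cycle tenotomy cells (x axis), for the whole gate and for marker-clear cells, with a black bar at the median. Resident genes move from a median of 0.10 to 0.74 when other-cell barcodes are left out, and MHC class II genes lie below 0 in both sets.

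Graded by division UMIs, Lyve1 stood higher and Arg1 and Spp1 lower from the first class that met the rule, while Gpnmb was at 222 CPM in 0-cycle cells and 231 CPM with 3 to 5 division UMIs. Lyve1 went from 77.6 CPM in 0-cycle cells to 119, 172, 285 and 318 CPM with 1 to 2, 3 to 5, 6 to 19 and 20 or more division UMIs. Arg1 went from 144 to 140, 68.5, 23.3 and 8.47 CPM, and Spp1 from 1780 to 1856, 1034, 505 and 621 CPM. H2-Aa was already lower in cells with 1 to 2 division UMIs, at 2381 against 3035 CPM, and reached 1090. Csf1r, a gene of the gate, stayed between 606 and 688 CPM in all classes. With the other-cell barcodes kept, Lyve1 was at 73.2, 108, 120, 146 and 165 CPM and the short resident list summed to 545, 690, 728, 702 and 682 CPM, against 577, 784, 1022, 1325 and 1280 CPM in marker-clear cells. Beyond the 1 to 2 class the sum of the short resident list therefore rose in marker-clear cells only, while Lyve1 still rose in the whole gate, less steeply. Arg1 still went from 142 to 14.7 CPM and H2-Aa from 2858 to 834 CPM in the whole gate.

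**Figure D5:**
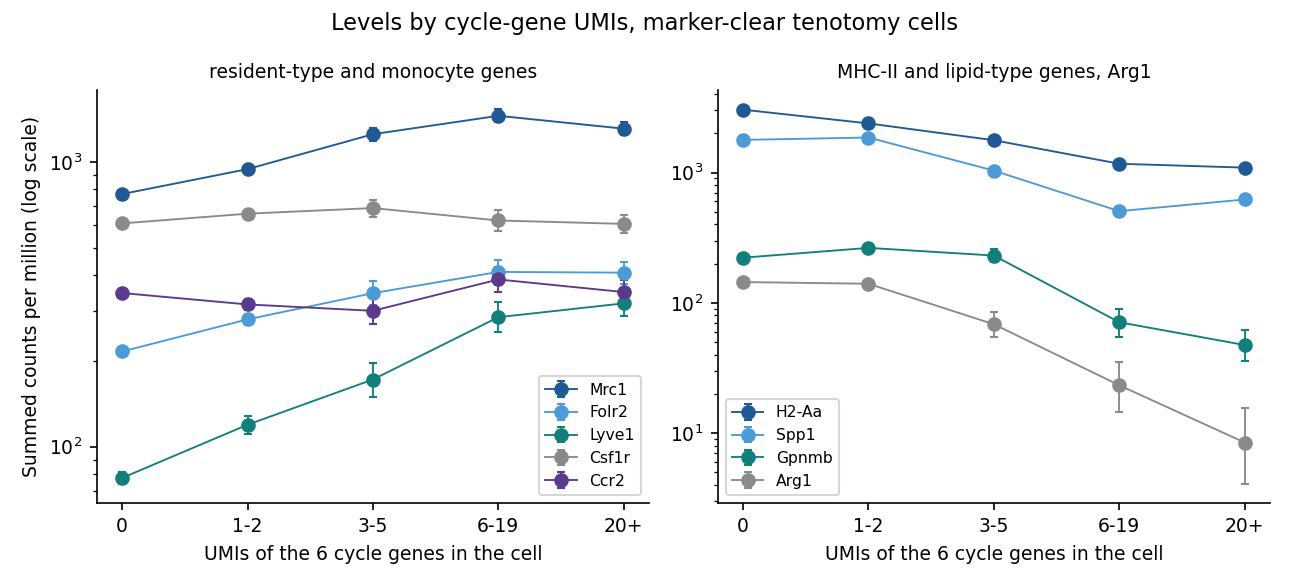
Summed CPM (y axis, log scale) of single genes in marker-clear tenotomy cells by the UMIs of the 6 division genes in the cell (x axis). Bars are exact 95% Poisson intervals. Lyve1 climbs from 77.6 to 318 CPM while Arg1 comes down from 144 to 8.47 CPM.

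The differences in MHC class II and lipid genes were also present inside the resident-positive cells. Among 143 cycling and 630 0-cycle cells of that state, 6 of 6 MHC class II genes and 11 of 22 lipid genes were at least 1.5-fold lower, with 4.14% of 5528 measured genes that much lower and 11.8% that much higher. Spp1 was 2.65-fold lower, Arg1 3.45-fold lower and H2-Aa 2.32-fold lower. The resident list, which chose these cells, had a median log2 fold of 0.06, with Folr2 at 655 against 653 CPM and Lyve1 at 481 against 294 CPM.

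At similar depth the resident, MHC class II and lipid differences kept their direction, and the inflammatory list did not hold. Among marker-clear cells of 8000 to 30000 UMIs, 217 cycling and 714 0-cycle, 8 of 19 resident genes were at least 1.5-fold higher (10.6% of 5446 measured genes), and 6 of 6 MHC class II and 15 of 23 lipid genes were that much lower (3.49% of genes). Lyve1 was 2.71-fold higher, H2-Aa 2.06-fold lower and Arg1 5.57-fold lower. Ly6c2 turned, from 1.32-fold lower over all depths to 2.93-fold higher here, and Ccr2 was 1.37-fold higher. The 20 measured inflammatory monocyte genes had a median of -0.21, with 3 at least 1.5-fold above and 4 that far below, and the 5 measured genes of the short inflammatory list had a median of 1.27, against -0.46 over all depths. Thbs1 was 2.86-fold lower, and Vcan was at 28.3 against 35.5 CPM.

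Of the chemokine and cytokine genes, 3 that draw monocytes were higher in marker-clear cycling cells. Ccl2, the main ligand of Ccr2, was at 1103 against 542 CPM, 2.04-fold higher (1.96-2.11), Ccl12 was 1.86-fold and Ccl7 1.78-fold higher. With the other-cell barcodes kept, Ccl2 was 1.86-fold, Ccl7 1.42-fold and Ccl12 1.13-fold higher, and within resident-positive cells they were 1.31-fold, 1.14-fold and 1.32-fold higher. The interleukin gene Il1b was at 504 against 962 CPM and the neutrophil attractant Cxcl3 1.62-fold lower. Over the 24 measured chemokine and cytokine genes the median was 0.11, and 4 stood at least 1.5-fold above and 2 that far below their 0-cycle level, a share above that is near the 12.7% of all genes. Over the whole gate 3 were that far above and 9 below, with a median of -0.46, so the list as a whole was not higher. In marker-clear cells most receptors for growth signals were close to level. Of 11 measured, 0 were at least 1.5-fold higher, and Csf2rb and Csf2rb2, which carry the signal of granulocyte-macrophage colony-stimulating factor, were 1.81-fold and 1.88-fold lower. Csf1r was at 640 against 608 CPM, a fold below the shift of all genes. In the whole gate 1 of 12 receptors was at least 1.5-fold higher and 4 were that much lower, with a median of -0.44.

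Ranked by the bound of the interval nearest to 1, the genes outside the cycle lists that were highest in marker-clear cycling cells were mostly known to serve division. Pbk, a mitotic kinase, was 254-fold higher (122-638), Cdkn3 52.7-fold, the actin nucleator Diaph3 35.5-fold and the histone chaperone Asf1b 23.3-fold, and Gmnn, the inhibitor of repeated replication, 8.24-fold. Ccl17 also ranked high, but its 160 UMIs came from 2 of the 303 cells, 107 of them from 1. Among the lowest were Ifitm1 (18.4 against 128 CPM), the decoy receptor Il1r2 (5.77-fold), the lactate exporter Slc16a3 (4.06-fold), the protease inhibitor Slpi (3.37-fold) and the growth factor Vegfa (2.92-fold).

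The whole gate gave other leading genes. Among its 12 highest were Gal at 23.9-fold, the muscle acetylcholine receptor gene Chrna1 at 24.3-fold, titin, encoded by Ttn, at 18.1-fold and the troponin gene Tnnt2 at 16.5-fold. In marker-clear cells the intervals of the folds of Gal, Chrna1 and Tnnt2 all spanned 1, with 0.724-2.14 for Gal, 0.831-4.98 for Chrna1 and 0.638-21.6 for the inverse fold of Tnnt2.

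The 9 sham members were too few to stand for a group, and their cells differed among themselves. Of the 7 marker-clear cells, 5 had 302, 363, 391, 531 and 853 UMIs of MHC class II genes with 0 to 12 of the resident list, with 3, 30, 2, 0 and 0 UMIs of C1q in that order, so that macrophage marker was low or absent in them. The other two had 0 and 1 MHC class II UMIs with 65 and 52 of the resident list and 320 and 135 of C1q. Both remaining members had 1420 and 1896 UMIs in all and were not marker-clear. Summed over the 7 cells, H2-Aa was at 6861 against 4084 CPM in sham 0-cycle cells, Lyve1 at 182 against 559 CPM and Folr2 3.32-fold lower. Of 23 measured resident genes 20 were at least 1.5-fold lower, with 19.6% of 5347 genes that much lower, and 8 of 8 MHC class II genes were that much higher, with 30.7% of genes. In the whole sham gate the shares past 2-fold were 14.4% above and 12.9% below. These directions are the opposite of those in tenotomy, rest on 7 cells, 5 of them low in C1q, and the difference was not tested. At 4000 UMIs, 0 of 167 marker-clear resident-positive sham cells cycled, with an upper limit of 2.18%, and 3 of 56 others did. The 0 depended on depth. At 8000 UMIs 1 of 74 resident-positive cells and 2 of 40 others cycled, and without thinning 4 of 200 and 3 of 44.

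Cycling cells of the libraries were set side by side last, 303 tenotomy against 7 sham marker-clear cells. At least 2-fold higher in tenotomy were 11.9% of 5563 measured genes and at least 2-fold lower 11%. Spp1 was at 737 against 22.7 CPM, the latter from 3 UMIs (32.4-fold, 11.1-157), and in 0-cycle cells Spp1 was 176-fold higher in tenotomy. Thbs1 had 1949 UMIs against 0 and was at least 25.8-fold higher, taking sham at 3 UMIs over the group, and in 0-cycle cells 5.77-fold higher. Lower in tenotomy were H2-Aa (5.06-fold, 4.70-5.43, and 1.35-fold in 0-cycle cells), Cd226 (28.8-fold, and 6.40-fold in 0-cycle cells) and Cd2 (23.9-fold, and 9.39-fold in 0-cycle cells). The sham UMIs of Cd226 and Cd2 lay almost wholly in the cells with many MHC class II UMIs. Those of Wnt11, Spink2 and Cd24a lay there too. The T and natural killer genes Cd3e, Cd3d, Cd3g, Trbc2, Nkg7 and Klrb1c had 0 UMIs in the 7 sham cells. Lyve1 was at 256 against 182 CPM in cycling cells, an interval for the fold of 0.941-2.21, but 7.20-fold lower in tenotomy in 0-cycle cells. In the whole gate the shares past 2-fold were 14.4% above and 11.8% below, and the 8 highest genes were Postn, Col3a1, Timp1, Bgn, Col1a2, Sparc, Col1a1 and Fstl1, most of them matrix genes of mesenchymal cells.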

How the data were processed

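The authors deposited raw counts, whole-number UMIs per gene and barcode with no normalization, 1 file per library, and per the submitters' processing notes they used Cell Ranger 4.0.0 and mm10. The sources used here do not name the annotation behind the counts. Of 32285 gene identifiers, 32158 were named from GENCODE vM21. Members and 0-cycle cells were chosen by the gate of the report. Counts were summed over cells and scaled to CPM. Folds carry exact conditional binomial intervals, shares Clopper-Pearson intervals, sums Poisson intervals and ratios of shares log-normal intervals. State shares used cells thinned at random to 4000 UMIs. The main results are those of the whole gate, and the marker-clear values were added after seeing the data. A gene with 0 UMIs in a class was taken at 3. Doublet scores came from scrublet in scanpy 1.11.5, and doublets were not removed. Python 3.11.15, numpy 2.4.6, scipy 1.17.1, pandas 2.3.3 and matplotlib 3.10.9 were used. The fold step was tested on simulated counts and the thinning step on gated cells of the tenotomy library. The members and gene lists were chosen with earlier results of these data known. Named were the genes of the rule, the measured genes of each list with the largest and smallest folds, up to 12 genes each way outside the cycle lists ranked by the interval bound nearest to 1, up to 8 each way between libraries, and 17 genes such as Ccr2, Spp1 and Cdkn1a whatever their values. Mitochondrial, ribosomal protein, antigen receptor, hemoglobin and unnamed gene models stayed out of the ranked parts. Genes of the 12 inflammatory-high cells, and other genes outside this rule, were chosen after their values were seen. With 1 library per group no test across samples was made.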

Additional observations from a re-analysis of the deposited data

Results flagged for a closer look

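In 8 named genes the difference between marker-clear cycling and 0-cycle cells went one way in tenotomy and the opposite way in sham, and none of these differences between libraries was tested. The sham side rests on 7 cells. Of these, 5 had 302 to 853 UMIs of MHC class II genes, 0 to 12 of the resident list and 0 to 30 of C1q. Of the 24 Lyve1 UMIs in the 7 cells, 20 came from 1 cell. Whether the 7 cells are of the same kind as the tenotomy members was not tested. For resident genes the log2 fold in tenotomy minus that in sham was 3.34 for Lyve1 (1.72 and -1.62), 2.57 for Folr2 (0.84 and -1.73), 2.88 for Maf (0.76 and -2.13), 1.87 for Mrc1 (0.78 and -1.08), 1.61 for Gas6 (0.74 and -0.87) and 2.88 for Cbr2 (0.96 and -1.91). For the MHC class II gene H2-Aa it was -1.91 (-1.16 and 0.75), and for the fatty acid binding gene Fabp5 -2.96 (-0.97 and 1.99).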

How the results depend on the processing

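The limits of these values are 1 library per group, a division call that depends on depth, and 9 sham members. No paired analysis was possible because each group is 1 pooled library, and for the same reason no replicate could be left out. The marker-clear alternative was chosen after seeing the data, and the cause of the shifts below was not tested. The sham share of 1.12% was 0% with at least 6 division UMIs. The tenotomy share of 5.37% was 8.46% with at least 2 division UMIs, 3.36% with at least 6, 3.37% in cells without other-cell markers, 3.02% at 2000 UMIs, 16.7% at 8000, 8.44% without thinning and 4.62% in marker-clear cells. The resident ratio of 2.41 was 1.79 with at least 2 division UMIs, 3.74 without other-cell markers, 1.497 at 8000 UMIs and 3.29 in marker-clear cells. For 8000 UMIs 3275 tenotomy cells of the gate were too shallow, so the values at that depth are for the 1524 deeper cells only. At 8000 UMIs the inflammatory ratio of 0.477 was 1.01, the lipid ratio of 0.422 was 0.894 and the MHC class II ratio of 0.445 was 0.648. Without thinning these ratios were 1.03, 1.80 and 0.930, the interferon ratio of 0.923 was 1.61 and the C1q ratio of 1.22 was 1.99. The MHC class II ratio was 0.283 at 2000 UMIs, the lipid ratio 0.570 with a state limit of 2 UMIs, and the C1q ratio 1.92 without other-cell markers and 2.23 in marker-clear cells. The 596 genes at least 2-fold higher and 159 lower in tenotomy cycling cells were 237 and 58 without other-cell markers, 258 and 46 at 8000 to 30000 UMIs, 245 and 54 in marker-clear cells, and 2452 and 448 with no filter on low counts. The lower count was 69 with at least 2 and 302 with at least 6 division UMIs, 90 with at least 6 identity UMIs and 79 as a mean over cells. With no filter the sham lower count of 717 was 1159, and the tenotomy-against-sham counts of 840 and 684 were 1325 and 2229. The log2 fold turned for Ccl17 with at least 6 division UMIs (-3.19), for Myc (-0.13), Gal (-0.33), Ttn (-0.37), Tnnt2 (-1.13) and H19 (-0.11) without other-cell markers, for Tnnt2 (-1.33) and H19 (-0.61) in marker-clear cells, and for Ly6c2 (0.86) and Gpr141 (0.047) at 8000 to 30000 UMIs.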

Other observations

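Genes of oxidative phosphorylation and of ribosome biogenesis were mostly above their 0-cycle level. Of all measured genes 12.7% were at least 1.5-fold higher and 3.98% that much lower in marker-clear tenotomy cells. The same shares in the whole gate were 21.6% and 11%. In marker-clear tenotomy cells, 30 of 31 measured nuclear genes of oxidative phosphorylation were above their 0-cycle level, with a median log2 fold of 0.26 beside 0.10 over all genes, and 0 were at least 1.5-fold higher. Ndufa4, an electron transport subunit gene, was highest at 418 against 301 CPM. Of 13 measured ribosome biogenesis genes 12 were above their 0-cycle level, with a median of 0.38, and 3 were at least 1.5-fold higher. In the whole gate 12 of 18 were that much higher, with a median of 0.80. Nop58, a core protein of the particles that modify ribosomal RNA, was at 68.3 against 33.5 CPM. Of 17 measured genes of glycolysis and lactate transport, 0 were at least 1.5-fold higher and 3 that much lower, with 6 above and 11 below their 0-cycle level. Over the whole gate 11 were above and 7 below.

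Repair factors and transcription factors were less uniform. Of 15 measured repair genes, 1 was at least 1.5-fold higher and 4 that much lower in marker-clear tenotomy cells, beside 12.7% and 3.98% of all genes. Pdgfc, a growth factor for mesenchymal cells, was at 33.4 against 17.4 CPM, and the metalloproteinase gene Mmp19 at 129 against 267 CPM. Of 24 measured macrophage regulator genes, Maf alone was at least 1.5-fold higher and 0 were that much lower, with Klf4 at 172 against 241 CPM. Among 20 immediate early genes, which respond within minutes to signals and to tissue digestion, 0 were past 1.5-fold in either direction. Igfbp4, an insulin-like growth factor binding protein gene, was at 253 against 115 CPM.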
